A study of Rattus norvegicus with 4 samples.

Results

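The genes described here encode the folding machinery of the endoplasmic reticulum (ER), the pathway that degrades proteins misfolded there, the sensors and transcription factors of ER stress, and the amino acid genes that the factor ATF4 controls. The members were 42 genes listed by symbol for their known roles, with earlier results of these data known. A member was measured where the platform annotation gave a probe set that single symbol, which held for 40 of the 42, through 55 of the 20826 probe sets with 1 symbol. Ern1 and Derl3 had no such probe set and have no value here. By role, 17 of the measured members were chaperones and folding enzymes, 7 were degradation genes, 7 were stress sensors or factors and 9 formed the amino acid arm.

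Smooth muscle cells from the aorta of Sprague-Dawley rats were grown for 5 days in medium with 10% serum and then kept for 3 days without serum. IL-1b (interleukin-1 beta, an inflammatory cytokine) was then given to 2 samples at 2.5 ng/mL for 24 hours, and 2 got the vehicle, 0.1% bovine serum albumin (BSA), so all 4 samples share the culture and the serum withdrawal. The RNA of each sample was read on its own single-colour Affymetrix array. The labels number the samples and name no separate cultures or animals, so the error behind each p-value is that between these samples alone and may be technical.

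Of 10 smooth muscle markers 7 were above background on every array (Acta2, Myh11, Tagln, Cnn1, Smtn, Lmod1 and Des). The summed intensity of all 10 was 35769 and 36381 with vehicle and 11825 and 9016 with IL-1b. Each sum below likewise covers every marker of its list with a probe set. Of 7 endothelial and 8 macrophage markers with a probe set, 0 were above background on all arrays, and Pecam1, Vwf, Emcn, Tie1, Itgam and Cd163 were below it on all 4. The endothelial sum was 156 and 182 with vehicle and 314 and 119 with IL-1b, and the macrophage sum 143 and 100.3 against 875 and 1079. Of 5 T cell markers Lck was above on all arrays, with sums of 174 and 102 against 388 and 104, and of 4 adventitial fibroblast markers Pdgfra and Pi16 were, with sums of 156 and 165 against 660.3 and 566. The smooth muscle, macrophage and fibroblast sums moved with the groups, and their part in the results was not tested. IL-1b replicate 1 stood apart, with hybridisation controls at 3.50 times their vehicle mean and a background of 76.7 against 18.8 to 29.4 on the other arrays. All 40 measured members were above background on all 4 arrays at the probe set used. In a whole culture, fewer cells with a transcript and less transcript per cell cannot be told apart.

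As background, secreted and membrane proteins fold in the ER with the help of chaperones such as BiP and of disulphide isomerases. When unfolded proteins build up, the sensors IRE1, PERK and ATF6 signal to the nucleus through the factors XBP1, ATF4 and cleaved ATF6. XBP1 and ATF6 act mainly on folding and degradation genes, and ATF4 acts on genes of amino acid synthesis, transport and feedback, also when amino acids are short. Smooth muscle cells secrete much of the matrix of the artery wall, which passes through this machinery.

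The response elements of these pathways could be looked for in the members' promoters. RefSeq windows of the GRCr8 assembly, from 250 bases before to 50 bases after each annotated start, were found for 35 of the 42 members and for 27457 genes in all, some with several starts. The ER stress response element (ERSE), searched as CCAAT and CCACG with 9 bases between them on either strand, was present in 9 of 35 members and in 21 of all 27457 genes (0.0765%). It was present in 7 of 13 folding members with a window, in Xbp1 and in Derl3, and in 0 of 9 members of the amino acid arm. Pdia3, Pdia6, Manf, Ero1a, Atf6, Ern1 and Derl1 had no window and were not searched. Of these, Pdia3, Manf and Ero1a are called higher below. The windows below show the element in capitals with up to 20 bases on either side, read along the gene's strand; where the capitals begin with CGTGG the element lies on the opposite strand. They are shown because the element recurs in genes described below, those that rose and those that did not. Canx, Creld2, Dnajc3 and Derl3 also held it, and their windows are not shown.
Hspa5 (chr3:38452953-38453011, plus strand): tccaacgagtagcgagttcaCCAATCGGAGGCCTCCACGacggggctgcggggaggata
Hsp90b1 (chr7:23012431-23012489, minus strand): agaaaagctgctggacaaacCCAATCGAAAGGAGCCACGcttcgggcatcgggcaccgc
Hsp90b1 (chr7:23012327-23012385, minus strand): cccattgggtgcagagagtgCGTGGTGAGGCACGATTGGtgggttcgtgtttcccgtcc
Calr (chr19:40213117-40213173, plus strand): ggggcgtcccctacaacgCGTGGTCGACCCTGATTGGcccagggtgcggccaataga
Ero1b (chr17:92941438-92941496, plus strand): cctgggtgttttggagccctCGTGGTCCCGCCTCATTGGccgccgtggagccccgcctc
Xbp1 (chr14:84604538-84604596, plus strand): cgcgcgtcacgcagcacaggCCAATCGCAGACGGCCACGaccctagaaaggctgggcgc
The copy in Hspa5 spanned bases -43 to -25 from the start, and those in Hsp90b1 -176 to -158 and -72 to -54.

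A second form, ERSE-II, searched as ATTGG and CCACG with 1 base between them on either strand, was present in Hyou1, Dnajb11 and Herpud1, which is 3 of 35 members, against 17 of 27457 genes (0.0619%). Hyou1 held it at 2 positions, and the first overlapped the only match among members of the XBP1 site core TGACGTGG, a core present in 0.681% of all genes.
Hyou1 (chr8:53602674-53602724, plus strand): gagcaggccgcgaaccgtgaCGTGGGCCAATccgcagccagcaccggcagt
Hyou1 (chr8:53602774-53602824, plus strand): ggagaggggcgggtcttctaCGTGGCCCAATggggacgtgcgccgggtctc
Herpud1 (chr19:10614801-10614851, minus strand): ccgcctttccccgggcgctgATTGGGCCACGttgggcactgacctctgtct
The core of the amino acid response element, TGATGNAAN on either strand, was present in Chac1, Trib3 and Herpud1, which is 3 of 35 members, against 4.14% of all genes. Within the amino acid arm it was 2 of 9.
Chac1 (chr3:126795943-126795991, plus strand): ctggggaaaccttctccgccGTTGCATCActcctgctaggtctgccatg
Trib3 (chr3:161275534-161275575, minus strand): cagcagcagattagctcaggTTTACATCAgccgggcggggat
A match is a run of letters and no measurement of binding, and a missing match says only that these letters were not in the window.

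After 24 hours with IL-1b, transcripts of 7 of 17 ER chaperones and folding enzymes rose, against 7.19% of all genes tested, with Ero1b, Sdf2l1, Hyou1 and Ero1a at 2.20 to 2.99 times the vehicle level. Among the sensors and factors Ppp1r15a rose 2.46-fold. No degradation gene passed the test at its brightest probe set, though another probe set of Edem1 did. In the amino acid arm Shmt2 rose 1.77-fold and Phgdh fell 1.80-fold. These calls were 11.1% of the arm each way, against 7.19% and 8.13% of all genes tested. The other 7 members did not pass. Folds are fitted on log2(intensity + 5.49), which understates the change of dim genes.

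Of the 40 measured members, 9 were higher and 1 was lower at an adjusted p under 0.05 in limma, which was fitted over all 18625 probe sets kept. Over all 10000 genes tested, 7.19% were higher and 8.13% lower. Both IL-1b arrays lay above both vehicle arrays for 29 members and below them for 4, against 29.4% and 31.8% of all genes. The median log2 fold change was 0.38 over the members and -0.01 over all genes. The count depended on the arrays, and with 1 array left out the error came from the other group alone. Without vehicle replicate 1 or 2, 4 and 5 members were higher and 0 were lower, against 4.44% and 4.25% of all genes higher and 4.45% and 3.99% lower. Without IL-1b replicate 1, 24 were higher and 2 lower, and without its partner, 21 and 5, with 15.2% and 22.8% of all genes then called higher and 17.7% and 27.1% lower. Centring each array on its median lowered the median change of all genes to -0.21, left 2 members called (Sdf2l1 and Hyou1, both higher), and took the share of higher among called probe sets from 47.1% to 34.4%. Without the intensity trend of the variance 3 members were higher (Sdf2l1, Hyou1 and Ppp1r15a) and 0 lower.

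**Figure D1:**
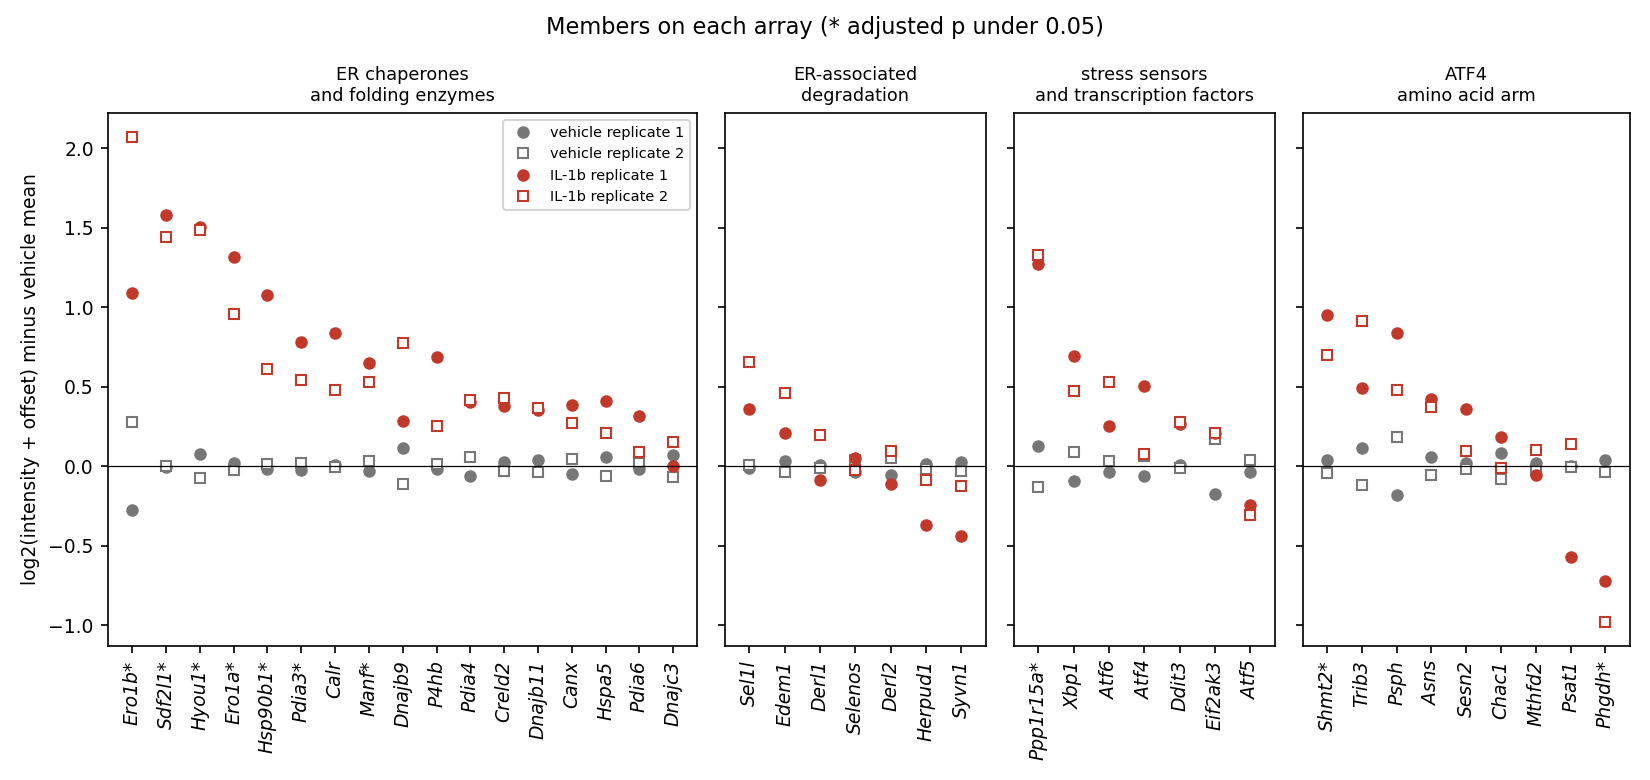
Log2 of intensity plus the offset on each array minus the vehicle mean (vertical axis) for the 40 measured members by role, vehicle in grey, IL-1b in red, replicate 1 as filled circles and replicate 2 as open squares. In the folding group 16 of 17 members have both IL-1b arrays above both vehicle arrays, against 29.4% of all genes, and Dnajc3 overlaps. The brightest probe set of each member is drawn, and another of Canx overlaps. The degradation and amino acid groups spread to both sides and Phgdh is lowest.

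Among the 17 chaperones and folding enzymes, 7 were higher (41.2%), 0 were lower and 10 did not pass, against 7.19% and 8.13% of all genes tested. All 17 fitted changes were positive, from 0.08 to 1.58 with a median of 0.53 (log2), and with each array centred on its median Pdia6 and Dnajc3 were below 0. The group's median against the vehicle mean was 0.65 on the first IL-1b array and 0.48 on the second. Of the 17 members, 11 read higher on IL-1b replicate 1 than on replicate 2, against 49.3% of all genes. With either IL-1b array left out, all 17 fitted changes stayed positive. Calls are not counted there, since the error then came from the vehicle arrays alone.

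Sdf2l1, a partner of the BiP chaperone cycle, read 320.4 and 323 with vehicle and 971 and 884 with IL-1b. The groups were far apart, with a log2 fold change of 1.51 ± 0.15 (SE, n = 2 a group, limma adjusted p = 0.0011). Hyou1, a large HSP70-like chaperone and nucleotide exchange factor of BiP, read 366 and 329 against 995 and 981. Its log2 fold change was 1.49 ± 0.15 (limma adjusted p = 0.0011), and its second probe set gave 1.59 ± 0.21 from 161 and 132 against 477 and 425. Sdf2l1 and Hyou1 passed under every alternative run. Hyou1 is the member with 2 ERSE-II copies in its promoter window, and Sdf2l1 held none of the 4 motifs.

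Ero1a and Ero1b encode the oxidases that recharge protein disulphide isomerase. Ero1a read 266 and 258 with vehicle and 659.6 and 514 with IL-1b, a log2 fold change of 1.14 ± 0.19 (limma adjusted p = 0.0091). Its second probe set, at 70.2 and 54.0 against 120.04 and 71.8, had a larger error and did not pass (0.55 ± 0.44, adjusted p = 0.47). Ero1b read 67.9 and 102 against 183 and 367, with a log2 fold change of 1.58 ± 0.40 (limma adjusted p = 0.043). The groups did not overlap, but the IL-1b arrays differed, and the change was 2.07 without IL-1b replicate 1 and 1.09 without the other. Its call was lost without vehicle replicate 1 (adjusted p = 0.081) and after quantile normalization (0.062).

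**Figure D2:**
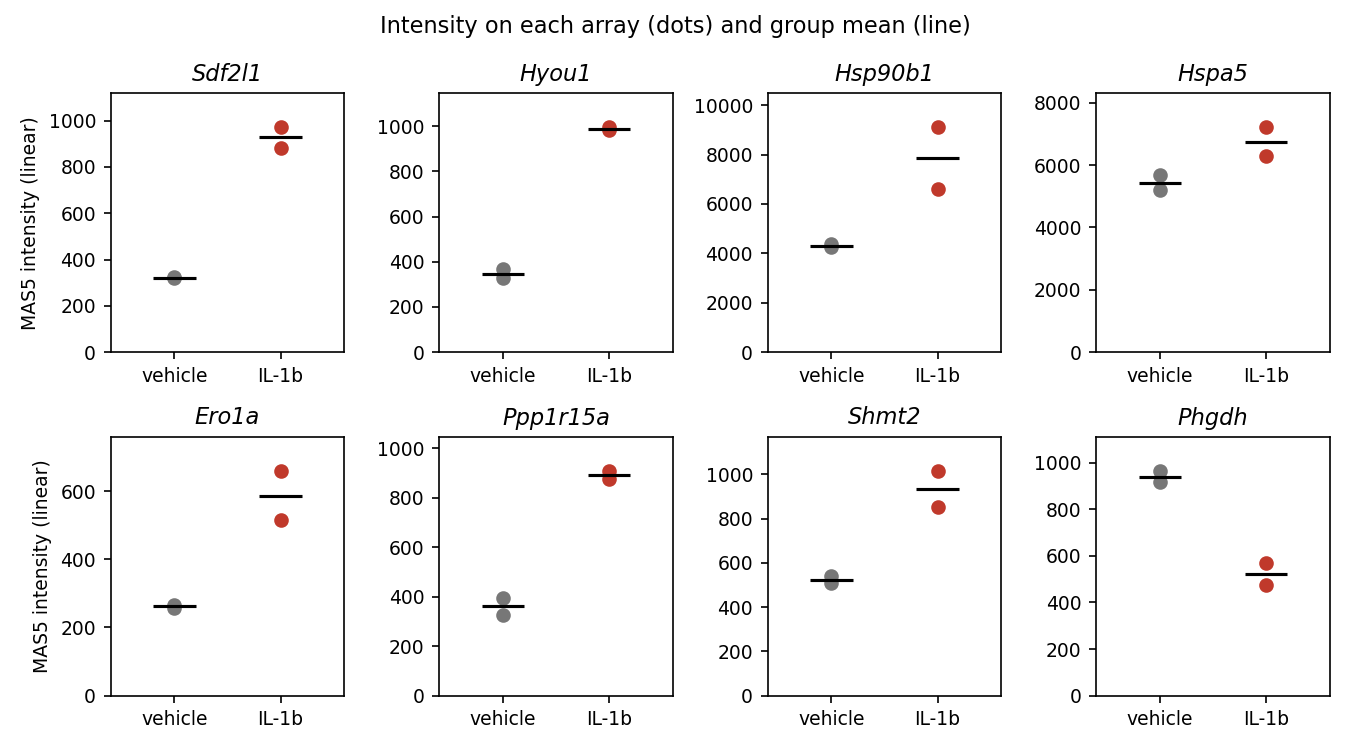
MAS5 intensity on a linear axis from 0 for 8 members, with a dot for each array and a line for the mean of each group of 2. Sdf2l1, Hyou1 and Ppp1r15a have replicates close together and groups far apart, Hsp90b1 differs between its IL-1b arrays (9106 and 6599), and Phgdh is the member that fell.

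Hsp90b1 (GRP94), the HSP90 of the ER, read 4265 and 4364 with vehicle and 9106 and 6599 with IL-1b. Its log2 fold change was 0.84 ± 0.20 (limma adjusted p = 0.036), or 0.61 without IL-1b replicate 1 and 1.08 without replicate 2. Manf, a secreted ER stress protein, read 1991 and 2079.95 against 3191 and 2947 (0.59 ± 0.14, adjusted p = 0.038). Pdia3 (ERp57), the isomerase that works on glycoproteins with calnexin and calreticulin, read 4179.8 and 4315 against 7307 and 6199 (0.66 ± 0.17, adjusted p = 0.045). The calls of these 3 genes were lost when either vehicle array was left out (adjusted p = 0.36 to 0.55), and that of Pdia3 also with the replicate number as a block (0.057), with no filter (0.071) and with its median probe set (0.20). That median probe set is the second of the 2 for Pdia3, the one with the lower change, at 0.54 ± 0.24.

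The lectin chaperones of the same cycle lay near the threshold or below it. Calr, calreticulin, read 3691 and 3659 against 6583 and 5119 (log2 fold change 0.66 ± 0.18, limma adjusted p = 0.057), and it passed after quantile normalization. The IL-1b arrays differed from each other more than the vehicle arrays did. Canx, calnexin, gave 3 answers: its brightest probe set was at 0.33 ± 0.15 (adjusted p = 0.21), another at 0.72 ± 0.14 (0.019) and the third at -0.11 ± 0.15 (0.68). The probe sets disagreed by more than their errors, so no direction is given for Canx.

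Hspa5, which encodes BiP, the main HSP70 of the ER and the usual marker of ER stress, read 5667 and 5199.8 with vehicle and 7214 and 6277 with IL-1b. Its log2 fold change was 0.31 ± 0.17 (limma adjusted p = 0.30), with a 95% interval of -0.10 to 0.72. Both IL-1b arrays were above both vehicle arrays, but the interval included 0. P4hb, protein disulphide isomerase, read 7421 and 7576 against 12074 and 8956 (0.47 ± 0.21, adjusted p = 0.20). Here IL-1b replicate 1 carried most of the gap, and the change was 0.26 without it. Pdia4 read 1064 and 1155 against 1469 and 1481 (0.41 ± 0.14, adjusted p = 0.10).

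The BiP cochaperones of the J-domain family did not pass. Dnajb9, which binds IRE1, read 667 and 570.1 against 752 and 1061 (log2 fold change 0.53 ± 0.20, limma adjusted p = 0.15). Dnajb11 read 724 and 688 against 906 and 911 (0.36 ± 0.14, adjusted p = 0.15). Dnajc3 (p58IPK), an inhibitor of eIF2-alpha kinases, read 997 and 905 against 952 and 1058, and its groups overlapped (0.08 ± 0.15, adjusted p = 0.77). Creld2 and Pdia6 were at 0.41 and 0.20 (adjusted p = 0.12 and 0.48).

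At their brightest probe sets the 7 degradation genes had 0 calls in limma. Their median log2 fold change was 0.01, which was -0.19 with each array centred on its median. At an unadjusted p under 0.05 there was 1 of 7, Sel1l, against 29.9% of all genes. Sel1l, the scaffold of the HRD1 ubiquitin ligase, read 225 and 228 against 292 and 360.2 (0.51 ± 0.20, limma adjusted p = 0.16). Syvn1, the HRD1 ligase itself, read 608 and 585 against 439.5 and 546 (-0.28 ± 0.17, adjusted p = 0.34). Herpud1, an ER membrane protein that joins that complex, read 839 and 821 against 641 and 782 (-0.23 ± 0.16, adjusted p = 0.41). For Syvn1 and Herpud1 both IL-1b arrays were below both vehicle arrays, as for 31.8% of all genes. Without IL-1b replicate 1 their log2 fold changes were -0.13 and -0.09, and without replicate 2 they were -0.44 and -0.37.

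Edem1, a lectin that marks misfolded glycoproteins for removal, had 3 positive probe sets. The brightest was at 0.34 ± 0.15 (limma adjusted p = 0.21), the second at 0.77 ± 0.20 (0.046) and the third at 1.01 ± 0.32 (0.086). The call of Edem1 therefore rested on which probe set stood for the gene. Derl1, Derl2 and Selenos, parts of the export channel complex, overlapped between groups at the brightest probe set, at 0.05, -0.01 and 0.01 (log2), with 95% intervals from -0.39 to 0.43 in all. Other probe sets allowed more: the second of Derl2 had its groups apart at 0.33, with an interval of -0.34 to 1.00, and the interval of another of Derl1 reached 0.59. None of these passed.

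**Figure D3:**
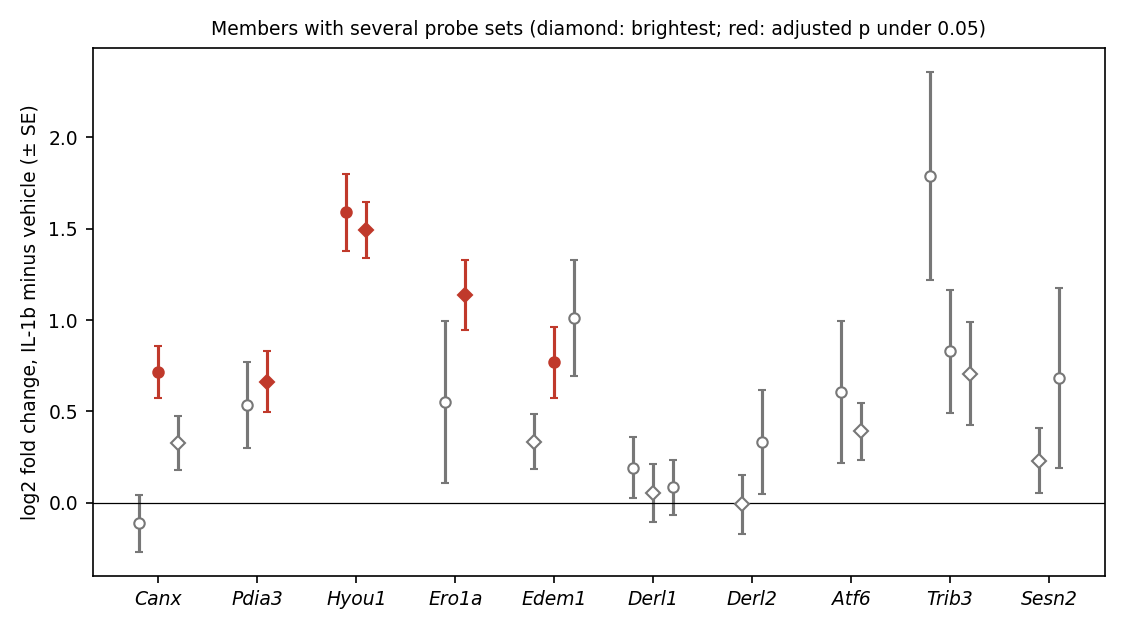
Log2 fold change with its SE for the 10 members with several probe sets tested, the brightest as a diamond and red where the adjusted p was under 0.05. Hyou1 gave 1.49 and 1.59, while the 3 probe sets of Canx ranged from -0.11 to 0.72 and those of Edem1 from 0.34 to 1.01.

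Among the 7 sensors and factors, 1 was higher (14.3%), 0 were lower and 6 did not pass, against 7.19% and 8.13% of all genes tested. The median log2 fold change was 0.29. Ppp1r15a (GADD34), the phosphatase subunit that reverses the eIF2-alpha phosphorylation made by PERK and its sister kinases, read 393 and 328 with vehicle and 875 and 909 with IL-1b. Its log2 fold change was 1.30 ± 0.16 (limma adjusted p = 0.0029), and it missed the threshold only with each array centred on its median (0.11). The groups were wide apart and the IL-1b arrays close together. Xbp1, the factor downstream of IRE1, read 1754 and 1991 against 3029 and 2599, a log2 fold change of 0.58 ± 0.16 (adjusted p = 0.054). It passed after quantile normalization, with the stricter filter and with a robust prior. Its change was 0.47 without IL-1b replicate 1 and 0.70 without replicate 2. The array reads total Xbp1 transcript and does not separate the form spliced by IRE1.

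The remaining factors did not pass the adjusted threshold. Atf4 read 3545 and 3870.4 against 5269 and 3913 (log2 fold change 0.29 ± 0.19, limma adjusted p = 0.37). IL-1b replicate 2 lay almost at the higher vehicle array, so the change was 0.08 without IL-1b replicate 1. Ddit3 (CHOP), the factor tied to cell death in ER stress, read 519 and 512 against 622 and 626 (0.27 ± 0.15, adjusted p = 0.29). Its groups were apart and its 95% interval ran from -0.08 to 0.62. Atf5 read 1830.2 and 1928 against 1587 and 1517 (-0.27 ± 0.14, adjusted p = 0.25), the 1 member of this group with a negative change. That change was -0.31 without IL-1b replicate 1 and -0.24 without replicate 2. Atf6 was at 0.39 with an interval of 0.02 to 0.76 before adjustment (adjusted p = 0.16). Its second probe set overlapped between groups, at 0.61 ± 0.39 with an interval of -0.31 to 1.53 (limma adjusted p = 0.36). Eif2ak3 (PERK) was at 0.21 (adjusted p = 0.60).

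The amino acid arm had 1 call in each direction. Of 9 members 1 was higher and 1 lower, 11.1% each, near the 7.19% and 8.13% of all genes tested. The other 7 did not pass, and 7 of the 9 fitted changes were positive. The median log2 fold change was 0.23, with a range from -0.85 to 0.83. The median was 0.36 on the first IL-1b array and 0.14 on the second, and 0.02 with each array centred on its median. With Atf4, Atf5, Ddit3 and Ppp1r15a added to the arm it was 0.27. The median of the 24 folding and degradation genes together was 0.41, made of 0.53 for folding and 0.01 for degradation, and the difference from the amino acid arm was not tested.

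Of the 3 enzymes of serine synthesis, Phgdh alone passed. Phgdh, the first enzyme of serine synthesis from glycolysis, read 965 and 915 with vehicle and 568 and 475 with IL-1b. Its log2 fold change was -0.85 ± 0.16 (limma adjusted p = 0.015), and it was the 1 member called lower. Psat1, the next enzyme, read 481 and 479 against 322 and 530.2, with overlapping groups (-0.21 ± 0.25, adjusted p = 0.62). The IL-1b arrays of Psat1 lay on both sides of the vehicle arrays. Psph, the last enzyme, read 284 and 367 against 582 and 452 (0.66 ± 0.21, adjusted p = 0.093).

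Shmt2, the mitochondrial enzyme that passes the carbon of serine to folate, read 539 and 507 with vehicle and 1017 and 852 with IL-1b (log2 fold change 0.83 ± 0.16, limma adjusted p = 0.016). The calls of Shmt2 and Phgdh, like those of the bright chaperones, were lost without either vehicle array (adjusted p = 0.094 and 0.17 for Shmt2, 0.14 and 0.099 for Phgdh). Mthfd2, the next step of the mitochondrial folate path, read 355 and 345 against 337 and 376, with overlap (0.02 ± 0.17, adjusted p = 0.94). Asns, asparagine synthetase, read 804 and 743 against 1037 and 1003 (0.40 ± 0.14, adjusted p = 0.12).

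The feedback genes of the arm did not pass. Chac1, which degrades glutathione, read 239 and 213 against 258 and 224, with overlapping groups (log2 fold change 0.09 ± 0.21, limma adjusted p = 0.82). Trib3, a pseudokinase that restrains ATF4, had 3 probe sets, and 0 of them passed. The brightest read 128 and 108 against 168 and 226 (0.71 ± 0.28, adjusted p = 0.16) and the second gave 0.83 (0.17). The third read 18.3 and 41.3 against 137 and 87.7, with 1 of its vehicle readings above background and a vehicle mean below the filter, so it was tested only through its IL-1b arrays and no fold is given. Sesn2, an inhibitor of mTORC1 signalling, was at 0.23 ± 0.18 (adjusted p = 0.45). Chac1 and Trib3 are the members of the arm with the amino acid response core in their promoter windows.

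Further genes of the pathway were taken from lists made by role, with earlier results of these data known. Of 40 tested genes of protein entry, glycan trimming and further folding, 6 were higher (15%) and 0 lower. Over all genes tested the shares were 7.19% and 8.13%. The median log2 fold change of the 40 was 0.28. Uggt1, the glucosyltransferase that senses misfolded glycoproteins for another round with calnexin, read 94.5 and 199.7 against 468 and 351 (1.52 ± 0.36, limma adjusted p = 0.035), or 1.00 without vehicle replicate 1, where it missed the threshold (0.099). The others were the prolyl isomerase Fkbp11, the signal receptor subunit Srprb, the oligosaccharyltransferase subunit Rpn2 and, outside the naming rule, Txndc5 and Spcs2, at 0.62 to 0.77. Of 20 further degradation genes, Edem2 rose by 1.23 ± 0.21 and Ngly1, which strips glycans from exported proteins, fell by 1.39, with log2 fold changes of -0.79 without IL-1b replicate 1 and -1.98 without replicate 2. That is 5% of the 20 in each direction, against 7.19% higher and 8.13% lower over all genes tested, and the median of the 20 was 0.03.

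Of 22 further stress sensors and factors, 6 were higher (27.3%) and 1 lower (4.55%), against 7.19% and 8.13% of all genes tested. The median was 0.45. Gadd45a, a growth arrest gene, read 535 and 436 against 2003 and 2359 (log2 fold change 2.16 ± 0.17, limma adjusted p = 3.6e-04). Gdf15, a secreted stress cytokine, read 18.1 and 39.6 against 217 and 333. Its vehicle mean lay below the filter, so it was tested, and is among the 6, only through its IL-1b arrays. No fold is given for it. Creb3l1 (OASIS), an ER-bound factor cleaved like ATF6, rose by 2.07 ± 0.28, from 184 and 149.5 to 931 and 545, or by 1.68 with the first IL-1b array left out and 2.45 with the second. Ddit4, an mTORC1 inhibitor, rose by 1.64, or by 2.12 and 1.16 in the same order. Eif2ak2 (PKR), the eIF2-alpha kinase induced by interferon, fell by 1.96 ± 0.32, with log2 fold changes of -1.44 and -2.49 in that order. Cebpb and Nfe2l2, outside the naming rule, rose by 1.59 and 0.85.

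Of 19 genes of amino acid transport and synthesis, 4 were higher (21.1%) and 1 lower (5.26%), against 7.19% and 8.13% of all genes tested. The median was 0.58. The count of 4 includes Slc7a11, and the median includes Slc7a11 and Mthfd1l. Both had vehicle means below the filter and were tested only through their IL-1b arrays. The median also includes Slc38a1, which read 70.3 and 63.7 with vehicle and 25.7 and 18.7 with IL-1b. Its IL-1b mean lay below the filter, so it was tested only through its vehicle arrays. Slc7a11, the cystine carrier, read 27.5 and 34.6 with vehicle and 1285 and 2057 with IL-1b. No fold is given for it, since like Gdf15 it passed the filter only through its IL-1b arrays. Its partner chain Slc3a2 rose by 0.76 ± 0.16, the glutamine carrier Slc1a5 by 1.22 ± 0.19 and glutamine synthetase, Glul, by 1.29 ± 0.22. Slc38a2, a neutral amino acid carrier that ATF4 is known to induce, read 2603 and 2591 against 1315 and 1696, and fell by 0.80 on the log2 scale (adjusted p = 0.023). Of 19 aminoacyl-tRNA synthetases, another known ATF4 group, Hars1 alone passed (0.63 ± 0.15, adjusted p = 0.038), though not with its median probe set (0.20, adjusted p = 0.66). That is 5.26% of the group higher, against 7.19% of all genes tested, and the group's median was 0.15. The calls of Srprb, Fkbp11, Rpn2, Slc3a2, Slc38a2 and Hars1 were lost without either vehicle array.

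**Figure D4:**
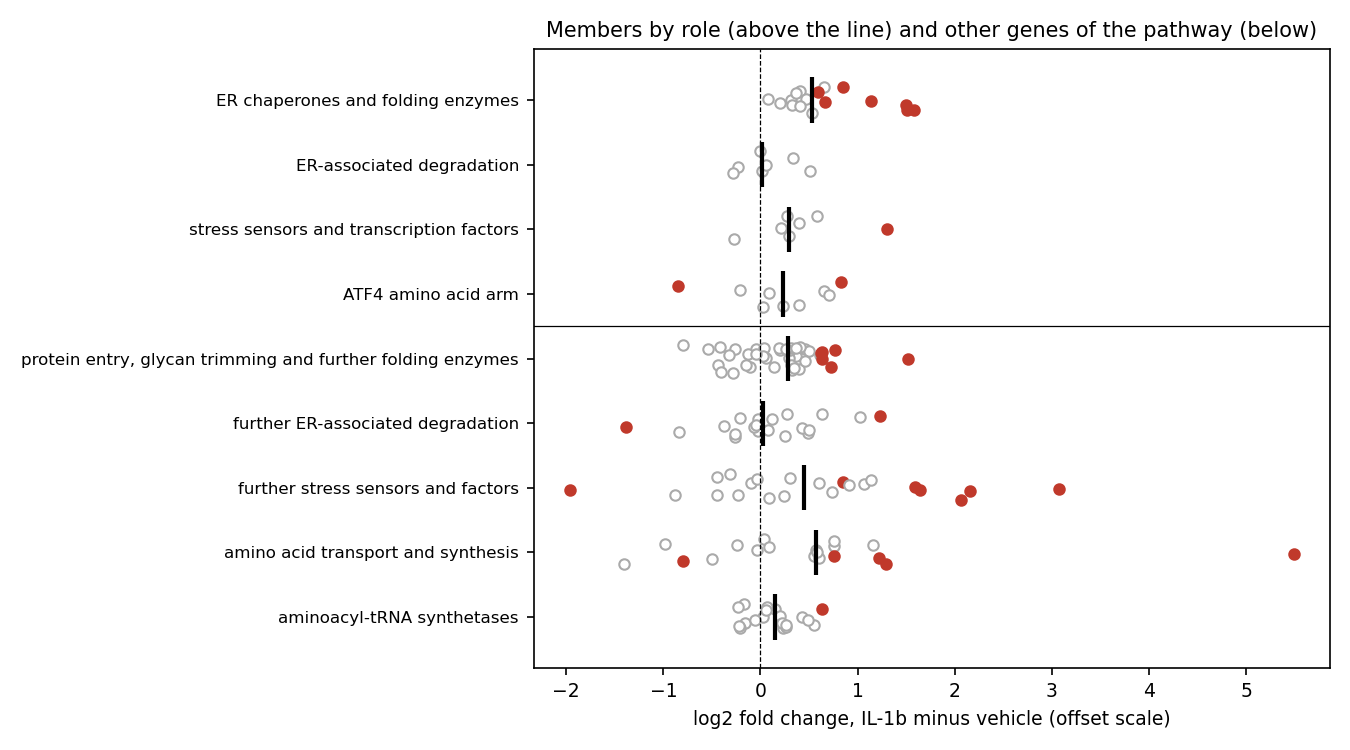
Log2 fold change of each gene tested (points, red where the adjusted p was under 0.05) and the median (bar) for the members by role, above the line, and for other genes of the pathway, below it; the dashed line is the median of all genes, -0.01. The folding group is to the right of the dashed line, degradation is centred on it in both lists, and Slc7a11, measured above background on 1 of 2 vehicle arrays, is the point farthest to the right.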

How the data were processed

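RNA from 4 samples of rat aortic smooth muscle (2 with IL-1b, 2 with vehicle) was read on Affymetrix arrays. The deposited intensity values are MAS5 signals on a linear scale, per the submitters' processing notes; the version is not given in the sources used here. Arrays have no read depth, and precision is limited by their number. The values were taken as log2(intensity + 5.49), the offset being the 10th percentile, with no further scaling. Probe sets with a mean log2 value below the 40th percentile (5.37) were left out, which kept 18625. Groups were compared with limma 3.58.1 in R 4.3.3 (lmFit, then eBayes with an intensity trend, 2 residual and 4.91 prior degrees of freedom), and p-values were adjusted by Benjamini-Hochberg over all 18625 at 0.05. The fit was tested on simulated data.

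Gene names came from the platform annotation: 20826 probe sets had 1 symbol, 436 several and 9780 none. The brightest probe set stood for a gene, which gave 10000 genes, and 54 of the 55 member probe sets were tested, since a dim one for Ero1b was not. All 55 matched a current gene by identifier. Background was the 95th percentile of 27 bacterial control probe sets on each array. The text gives no fold for a named probe set that passed the filter only through its IL-1b arrays. Promoters and their starts came from RefSeq, GRCr8. The members and all lists were chosen with earlier results of these data known. Every member is described or counted; of the other lists, the text names up to 4 called genes with the largest change in each direction, and genes outside that rule are named as such. The alternatives were another or no offset, quantile normalization, median centring, no or a stricter filter, no trend, a robust prior, a replicate block, each array left out, the median probe set, stricter thresholds and a wider amino acid arm. For a gene with 2 probe sets, the median one was that with the lower change.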

Additional observations from a re-analysis of the deposited data

How the results depend on the processing

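Sdf2l1 and Hyou1 were called under every alternative run, and no result changed its direction from a called value. The probe sets called, 2503, numbered 1634 with median centring, 963 without the intensity trend, 1222 at an adjusted p under 0.01 and 1357 to 8666 with an array left out. The members called higher, 9, numbered 2, 3 and 4 under those settings, 5 at 2-fold or more, and 4 to 24 with an array left out. The members called lower, 1, numbered 0 with median centring, without the trend, at the stricter p and at 2-fold, and 0 to 5 with an array left out. The median of the amino acid arm was 0.28 after quantile normalization, 0.025 with median centring, 0.27 with the factors added and 0.14 to 0.36 with an array left out. That of folding and degradation together was 0.20 with median centring. The causes were not tested. With an array left out, the lone array of its group is assumed to vary like the other group.

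The samples share only replicate numbers: same-numbered samples' deviations correlated at 0.0912 over 18625 probe sets, and the replicate block gave 3276 probe sets, 8 members higher and 1 lower. With 2 arrays a group, 2 residual degrees of freedom and 1 array with a raised background, small changes of single members could not be resolved.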

Other observations

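The ERSE and ERSE-II were rare enough to list their other holders. Of 26 genes outside the members with either element, 13 were tested and 7 had a positive change. The median log2 fold change of the 13 was 0.01. It was 0.41 over the 11 member holders tested and 0.38 over all 40 measured members. Named after their values were seen, Nucb1 was 0.95, Zfand2a 1.14 and Rcl1 1.24, all called higher in limma, and Ppm1l was -1.38 and called lower. Of the member holders 3 of 11 were called higher, namely Hyou1, Hsp90b1 and Ero1b. The share was 22.5% over all 40 measured members and 7.19% over all genes tested. Whether an element goes with a change among the members was not tested. Hspa5, Calr, Xbp1, Canx, Creld2, Dnajc3, Dnajb11 and Herpud1 did not pass.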
